A study of Mus musculus with 6 samples.

Results

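Neural crest and early glial transcription factors were followed in sciatic nerves of mice with, and without, a deletion of the zinc finger repressor Zeb2 (also called Sip1) directed to Schwann cells. The 9 genes were a list fixed by name, Pax3, Tfap2a, Tfap2b, Foxd3, Mitf, Ets1, Mycn, Msx1 and Msx2. This list and the other gene lists were chosen with earlier results of these data known, so their shares are descriptions. All 9 had a probe set among the 20239 named genes of the array. Nerves came from 25-day-old mice, with 1 Affymetrix whole-transcript array per mouse. The 3 mutant mice had the genotype DhhCre::Sip1 flox/flox, in which a Cre recombinase under the Desert hedgehog promoter acts in the Schwann cell lineage. The 3 controls were Sip1 flox/flox, so both groups carried the floxed alleles and only the mutants carried Cre. Values are deposited log2 expression values, and a difference is the mutant mean minus the control mean.

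The neural crest is an embryonic cell population that leaves the dorsal neural tube and gives rise to Schwann cells, melanocytes, sensory and autonomic neurons and much of the facial skeleton. Pax3, Msx1 and Msx2 act at its border with the neural plate, Tfap2a, Tfap2b, Foxd3, Ets1 and Mycn act in specification, survival and growth, and Mitf directs the melanocyte fate. Along the glial path, crest cells become Schwann cell precursors, then immature Schwann cells, then myelinating or nonmyelinating cells. AP-2 alpha, the product of Tfap2a, is known from Schwann cell precursors and is lowered as these become immature Schwann cells. Zeb2 binds DNA at CACCT sequences and partners with SMAD proteins of the BMP and TGF-beta pathways.

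To show whether the letters that Zeb2 reads lie near the starts of these genes, the 250 bases before each annotated start were searched. RefSeq windows of build GRCm38.p6 were at hand for 7 of the 9 genes, 10 windows in all, with none for Pax3 and Ets1. The 5 letters CACCT, on either strand (AGGTG), were in 3 of the 10 windows, against 46.0% of all 32851 windows. The longer CACCTG, which contains CACCT and is read on the other strand as CAGGTG, was in 2 of the 10, against 17.2% of all windows. Both windows of Tfap2a are shown because it is the gene that moved, and those of Mitf and Msx1 because they hold the other matches. Capitals mark CACCT or AGGTG, and each window runs 5′ to 3′ along the gene's strand.
Tfap2a start 1, chr13:40734921-40735170, minus strand: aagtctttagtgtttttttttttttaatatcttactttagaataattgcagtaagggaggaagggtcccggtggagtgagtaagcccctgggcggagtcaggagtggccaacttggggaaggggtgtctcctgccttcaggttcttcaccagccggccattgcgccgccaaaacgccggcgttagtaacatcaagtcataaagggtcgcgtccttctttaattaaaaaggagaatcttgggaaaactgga
Tfap2a start 2, chr13:40733796-40734045, minus strand: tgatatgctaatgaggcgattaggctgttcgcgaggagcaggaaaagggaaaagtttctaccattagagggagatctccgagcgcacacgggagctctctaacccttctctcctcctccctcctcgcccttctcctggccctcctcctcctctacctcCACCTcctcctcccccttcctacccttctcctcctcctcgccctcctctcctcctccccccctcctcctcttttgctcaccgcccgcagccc
Mitf start 2, chr6:97929567-97929816, plus strand: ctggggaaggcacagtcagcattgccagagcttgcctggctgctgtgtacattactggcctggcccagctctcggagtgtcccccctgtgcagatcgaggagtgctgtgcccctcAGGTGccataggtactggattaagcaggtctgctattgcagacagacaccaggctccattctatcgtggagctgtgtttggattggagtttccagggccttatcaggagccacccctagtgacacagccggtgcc
Msx1, chr5:37824586-37824835, minus strand: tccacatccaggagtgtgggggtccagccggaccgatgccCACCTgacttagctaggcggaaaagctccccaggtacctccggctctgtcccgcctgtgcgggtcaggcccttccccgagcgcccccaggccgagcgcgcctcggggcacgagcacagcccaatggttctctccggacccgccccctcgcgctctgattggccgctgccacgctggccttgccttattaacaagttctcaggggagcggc
The first Tfap2a window had no match, and the second had 1, from 88 to 92 bases before the start, inside a run of C and T. The Mitf match lay 131 to 135 bases before the second of 3 starts, and the Msx1 match 206 to 210 bases before its start. The AP-2 letters GCCNNNGGC were in 0 of the 10 windows (13.7% of all windows), and CACGTG, the E-box letters read by MYC and MITF, in 1, that of Foxd3 (6.02% of all windows). These matches are descriptions of letters, not of bound sites. The Tfap2a and Mitf windows overlap the annotated span of their genes, and whether they cover an exon of a longer transcript was not examined.

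The deleted gene was checked first. Zeb2 stood at 10.96, 10.66 and 11.01 in mutants 1 to 3 and at 11.67, 11.57 and 12.02 in controls 1 to 3, a difference of −0.88 (limma adjusted p = 0.0137, and 0.0522 without mutant 1). The sources used here do not give where the probes lie relative to the floxed part. Markers of Schwann cells (8 of 11 named on the array) averaged 10.08 to 10.57 in the mutants and 11.61 to 12.11 in the controls, and 4 of the 8 fell, 50%, beside 3.89% of all genes lower, Mag, S100b and Mbp the most. Skeletal muscle markers averaged from 7.54 to 12.41 in the mutants and from 7.62 to 12.55 in the controls, with both arrays numbered 2 the highest. Those numbered 3 lay between, at 9.85 in mutant 3 and 10.34 in control 3, and those numbered 1 were the lowest. Adipocyte markers averaged 10.05 to 10.91 and 9.77 to 12.07, macrophage markers 9.03 to 9.32 and 8.78 to 9.07. In limma 0 of 19 muscle and 0 of 12 adipocyte markers passed, also at an unadjusted p under 0.05. Of the 9 macrophage markers 0 passed, with 3 higher before adjustment, beside 4525 of all 20239 genes in both directions. The adipocyte marker with the smallest p, Cidea, stood at −1.83 (limma adjusted p = 0.228). With array weights it fell by 2.27 (limma adjusted p = 0.0309). Of the macrophage markers C1qb rose by 0.63 without control 1 (adjusted p = 0.0495), and 4 of the 9 rose with array weights. In that last setting 2411 of all 20239 genes were higher. The mutants were 2 males and 1 female and the controls 1 male and 2 females, as read from Xist and Y-linked genes.

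Of the 9 factors 1, Tfap2a, rose in the mutant nerves, and none fell. The other 8 did not pass the test (limma, Benjamini-Hochberg adjusted p under 0.05 over all 20239 genes), although Mitf and Mycn were lower at an unadjusted p under 0.05. That is 1 of 9, beside 9.62% of all genes called, 5.74% higher and 3.89% lower. The count of all genes called, 1948, was 896 without mutant 1, 910 without mutant 3 and 3655 with array weights. The median difference of the 9 was −0.05, against −0.02 for all genes, and the median size of the difference, whatever its sign, was 0.10 against 0.14. The mutant and control values did not overlap for 3 members, Tfap2a above and Mitf and Mycn below, beside 28.1% of all genes, 16.3% above and 11.8% below. The number called was 2 rather than 1 with the replicate number of the labels as a block, Mycn being the addition. It was also 2 without control 1, and 1 without any other single array or without both arrays numbered 2. In whole nerve, a change in the number of cells of a type and a change in RNA per cell cannot be told apart.

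**Figure D1:**
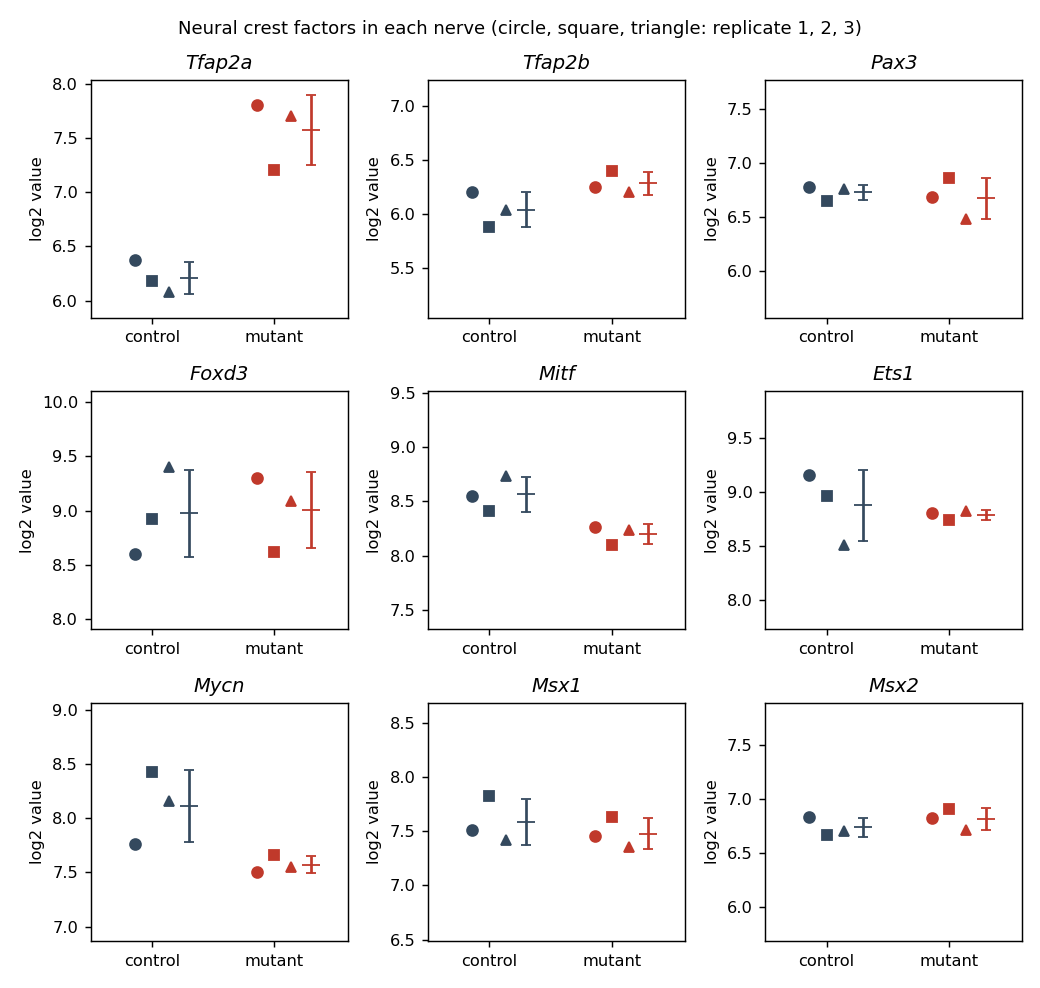
Log2 value of each of the 9 factors in every nerve, controls in dark blue and mutants in red, with the group mean and SD to the right of the points (n = 3 each); each panel spans the same height on the log2 scale. Tfap2a stands apart between the groups, Mitf and Mycn are lower in all 3 mutants, and the other 6 factors overlap.

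Of the AP-2 factors, Tfap2a rose and Tfap2b did not pass the test. Tfap2a, which encodes AP-2 alpha, stood at 7.80, 7.20 and 7.71 in mutants 1 to 3 and at 6.37, 6.18 and 6.08 in controls 1 to 3. All mutant arrays lay above all control arrays, with a gap of 0.83 between the lowest mutant and the highest control. The lowest mutant was number 2, 1 of the 2 arrays with the highest muscle markers. The means were 7.57 ± 0.32 and 6.21 ± 0.15 (SD, n = 3 each), a difference of 1.36 (SE 0.17, 95% confidence interval 0.96 to 1.77, 2.57-fold higher, limma adjusted p = 0.00432). By the size of the rise it ranked 173 of 20239 genes. The control values lay under the lower quartile of all array values, 6.68, so they may be near background, where arrays compress differences.

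The rise of Tfap2a was 1.43, 1.03 and 1.63 between arrays numbered 1, 2 and 3. It was 1.43 among males and 1.44 among females. Leaving out single arrays gave 1.25 to 1.55, with adjusted p between 0.002 and 0.0269, and without both arrays numbered 2 it was 1.53 (adjusted p = 0.0092). Of 10 perineurial markers 8 rose, 80%, beside 5.74% of all genes higher, in a list chosen with earlier results of these data known. The largest rises were those of Moxd1 by 2.03, Tenm2 by 1.55 and Cldn1 by 1.53. The list means were 11.01 to 11.13 in the mutants and 9.91 to 10.24 in the controls. Without mutant 3 the number that rose was 5. Keratinocytes also express AP-2 factors, and 0 of 8 keratinocyte markers passed (limma, also 0 at an unadjusted p under 0.05; Dsg3 adjusted p = 0.344), with means of 6.59 to 6.82 and 6.69 to 6.78. The part of other cell types in the rise was not tested.

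Tfap2b, the closely related AP-2 beta, stood at 6.25, 6.40 and 6.20 in the mutants and at 6.20, 5.88 and 6.04 in the controls. The lowest mutant and the highest control lay within the rounding of these values of each other, and the groups overlapped. Its difference was 0.24 (SE 0.11, interval −0.02 to 0.50, limma adjusted p = 0.259). It passed with repeated quantile normalization, at 0.33 (adjusted p = 0.0328), and was 0.11 without both arrays numbered 2. Subtracting Tfap2b from Tfap2a within each array gave 1.56, 0.81 and 1.51 in mutants 1 to 3, against 0.17, 0.30 and 0.04 in controls 1 to 3. The difference of the changes was 1.12, with an exact two-sided permutation p = 0.1, the smallest that the 20 splits of 6 arrays allow. Tfap2a alone already separated the groups, so this p adds no support beyond its own call. All Tfap2b values lay under the lower quartile of all array values, 6.68, and may be near background. The contrast therefore cannot tell an unchanged Tfap2b from one too low to measure. The remaining AP-2 genes, Tfap2c, Tfap2d and Tfap2e, lay between −0.07 and −0.06, and 0 of 3 passed (limma, also 0 at an unadjusted p under 0.05), the smallest adjusted p being 0.725 for Tfap2d. The group means of Tfap2c and Tfap2d also lay under the lower quartile.

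Among the factors of fate choice, Mitf was lower in the mutants without passing the test. Mitf, the regulator of melanocyte genes, also active in mast cells and osteoclasts, stood at 8.27, 8.10 and 8.23 in the mutants and at 8.55, 8.41 and 8.74 in the controls. All 3 mutants lay below all 3 controls, by a gap of 0.14. The difference was −0.37 (SE 0.11, interval −0.62 to −0.11, limma adjusted p = 0.0927). Single omitted arrays gave −0.44 to −0.28, and with the adipocyte score as a covariate the difference passed, at −0.42 (adjusted p = 0.0484). Its relatives Tfe3, Tfeb and Tfec lay between −0.10 and 0.23, and 0 of 3 passed (limma, also 0 at an unadjusted p under 0.05; Tfec adjusted p = 0.476).

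Of 14 genes on the list of MITF targets, 2 fell and 1 rose, 21.4%, beside 9.62% of all genes called, with a median of −0.13 (−0.25 without both arrays numbered 2). Met, the receptor of hepatocyte growth factor, fell from 9.49 ± 0.06 to 8.09 ± 0.39 (−1.40, SE 0.19, limma adjusted p = 0.00532). Tyrp1, a melanosome enzyme, fell by 0.50, from 6.64 to 6.14, and both group means lay below the lower quartile of array values, 6.68. Those of Tyr, Gpr143, Dct, Trpm1 and Slc24a5 did too, so the share and median of the list include genes that may be near background. Without the lowest 50% of genes the median was −1.40, the difference of Met, and 1 gene passed. Rab27a, a small GTPase of melanosome transport, rose by 0.32. The calls of Tyrp1 and Rab27a were lost without mutant 1, mutant 3 or any one control, and that of Rab27a also without mutant 2, while Met passed in all 19 alternatives. With the replicate block, or without any one array other than mutant 2, only 1 of the 14 genes passed. Mast cell markers averaged 7.52 to 7.67 in the mutants and 7.08 to 7.74 in the controls, and 0 of 8 passed (limma, also 0 at an unadjusted p under 0.05; Kit at 0.22, adjusted p = 0.279). With the adipocyte score as a covariate, under which Mitf passed, 3 of the 8 rose, Cpa3 by 0.57, Tpsb2 by 0.51 and Cma1 by 0.36. In that setting 1213 of all 20239 genes were higher, and a link between these markers and Mitf was not tested.

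Foxd3, the forkhead repressor that keeps crest cells multipotent and holds back the melanocyte fate, did not separate the groups. It stood at 9.30, 8.61 and 9.09 in the mutants and at 8.60, 8.92 and 9.40 in the controls. The highest value of all 6 was a control and so was the lowest. The difference was 0.03 (SE 0.25, interval −0.56 to 0.61, limma adjusted p = 0.965), and its sign turned in 8 of 19 alternatives, both other scalings among them. This interval is the widest of the 9, so differences of up to about 1.5-fold in either direction lie within it.

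The relatives Foxd1 and Foxd2 rose, 2 of 3 on the list, 66.7%, beside 9.62% of all genes called. Foxd1, a forkhead factor of kidney stroma and other mesenchyme, stood at 9.46, 9.22 and 9.43 in the mutants against 7.47, 7.82 and 7.95 in the controls. The groups were far apart, with a difference of 1.62 (SE 0.14, 3.08-fold, limma adjusted p = 0.00122). Foxd2 was at 9.26 ± 0.10 against 8.70 ± 0.10, a rise of 0.57 (adjusted p = 0.0114). Its call was lost without mutant 3 (adjusted p = 0.064) and without both arrays numbered 2 (0.0788). Foxd4 stood at −0.02.

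Pax3, a paired-box factor of early crest that is also found in embryonic Schwann cells, was at 6.69, 6.86 and 6.48 in the mutants and at 6.78, 6.65 and 6.76 in the controls. Both the highest and the lowest array were mutants. The difference was −0.05 (SE 0.11, interval −0.32 to 0.22, limma adjusted p = 0.835), and it was 0.04 without mutant 3. These values lie close to the lower quartile of the arrays. None of the 8 other Pax genes passed (limma, also 0 at an unadjusted p under 0.05), and Pax9, with the smallest p of them, stood at 0.23 (adjusted p = 0.298). Pax3 and Pax7 also mark muscle precursors. Satellite cell markers averaged 7.01 to 7.44 in the mutants and 7.11 to 7.47 in the controls, highest in both arrays numbered 2, and 0 of 6 passed (limma, also 0 at an unadjusted p under 0.05; Chrdl2 adjusted p = 0.371).

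**Figure D2:**
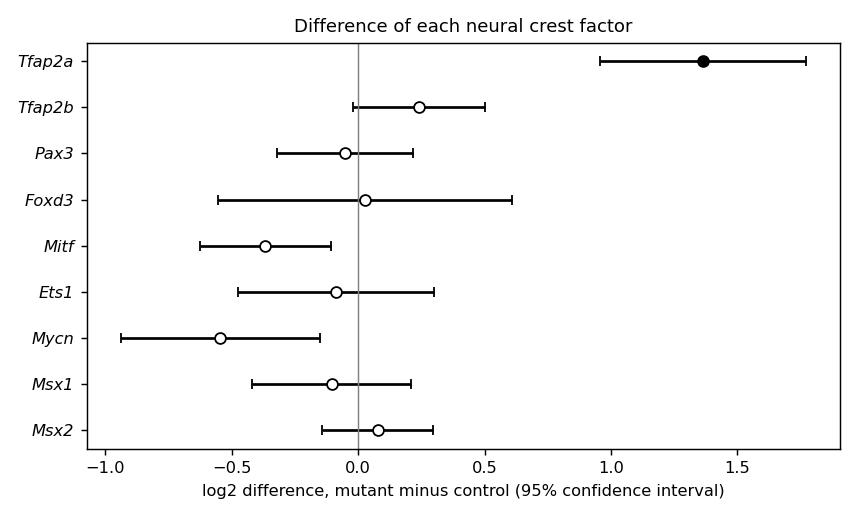
Log2 difference, mutant minus control, of each factor with its 95% confidence interval from limma; a filled point passed at an adjusted p under 0.05. The interval of Tfap2a runs from 0.96 to 1.77, those of Mitf and Mycn lie below 0 before adjustment, and those of the other 6 include 0.

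Ets1, an ETS factor of migrating cardiac crest, endothelium and lymphocytes, did not pass. It was at 8.80, 8.74 and 8.82 in the mutants, which lay close together, and at 9.15, 8.96 and 8.51 in the controls, which lay on both sides of them. The difference was −0.09 (SE 0.16, interval −0.47 to 0.30, limma adjusted p = 0.809), and it was 0.05 without control 1. The list means of endothelial markers had the same order among the controls, 10.37, 10.19 and 9.95, beside 10.04, 10.06 and 9.97 in the mutants. Single endothelial markers went both ways, from Kdr at −0.57 to Cdh5 at 0.38, the latter with all mutants above all controls (limma adjusted p = 0.167 and 0.214). Of these 13 markers 2 fell and none rose, 15.4%, beside 9.62% of all genes called. The 2 were Vwf, by 0.43, and Cldn5, by 0.42, and both calls were lost without any one of mutants 1 to 3 or controls 1 or 3, that of Vwf also without control 2. With the replicate block 0 of the 13 passed (Vwf adjusted p = 0.0592, Cldn5 0.0503). Without control 1, Cdh5 rose by 0.54 (adjusted p = 0.0409) and none of the 13 fell, and without control 3 Kdr alone fell, by 0.80 (adjusted p = 0.0308). Lymphocyte markers averaged 6.15 to 6.31 and 6.16 to 6.37, and 0 of 8 passed (limma, also 0 at an unadjusted p under 0.05; Cd79a adjusted p = 0.309).

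Other ETS genes rose where Ets1 did not pass. Of 19 named relatives 5 rose and none fell, 26.3%, beside 9.62% of all genes, with a median of 0.18 (0.28 without mutant 2 and 0.31 without both arrays numbered 2). Etv1, a target and effector of growth factor signalling, stood at 10.57, 10.08 and 10.64 in the mutants against 8.84, 8.66 and 9.14 in the controls, with no overlap. Its difference was 1.55 (SE 0.19, 2.92-fold, limma adjusted p = 0.00364). Ehf, an epithelial ETS factor, rose by 1.14, and Etv4, which like Etv1 belongs to the PEA3 group, by 0.99. Without mutant 1 the number that rose was 3. Of 10 fibroblast markers 3 rose, 30%, beside 5.74% of all genes higher, Lum by 0.99, Cd34 by 0.74 and Pdgfra by 0.51, with list means of 11.76 to 12.05 in the mutants and 11.38 to 11.77 in the controls. Without mutant 1 or without mutant 3 only Lum rose, and Pdgfra also lost its call without control 2 or control 3. With array weights 6 of the 10 rose, beside 2411 of all 20239 genes higher in that setting. Their part in the rise of the ETS genes was not tested.

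Mycn, the MYC family member of embryonic neural and crest progenitors, was lower in all mutants and did not pass. It was at 7.51, 7.66 and 7.55 in the mutants and at 7.77, 8.43 and 8.16 in the controls. The mutants lay together, the controls spread over more than the gap between the groups, which was 0.11. The difference was −0.55 (SE 0.17, interval −0.94 to −0.15, 1.46-fold lower, limma adjusted p = 0.0996). With the replicate number as a block it passed, at the same difference (adjusted p = 0.0489), and without control 1 it passed at −0.72 (adjusted p = 0.021). Without control 2 it was −0.39 (adjusted p = 0.193). The highest array of each group was number 2, the one with the highest muscle markers in its group. With the muscle score as a covariate the difference was −0.53 (adjusted p = 0.0464), and without both arrays numbered 2 it was −0.43 (adjusted p = 0.188).

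Myc stood the other way, without passing. It was at 10.68, 9.81 and 9.94 in the mutants and at 9.32, 9.29 and 8.62 in the controls, and all mutants lay above all controls. The difference was 1.07 (SE 0.28, limma adjusted p = 0.062), and it passed with the replicate block (adjusted p = 0.0172). None of the 10 genes of the MYC family and MAX network passed in limma. At an unadjusted p under 0.05, 3 of them were higher and 1 lower, beside 4525 of all 20239 genes in both directions. With the replicate block 1 rose, beside 1205 of all genes higher, and with array weights 3 rose, beside 2411. Among 17 targets of MYC proteins in growth and ribosome assembly, the median was 0.15. At an unadjusted p under 0.05, 7 were higher and 1 lower, beside 4525 of all 20239 genes in both directions. After adjustment 2 rose and none fell, 11.8%, beside 5.74% of all genes higher and 9.62% called. They were Ccnd2 by 1.26 (SE 0.19, limma adjusted p = 0.00933) and Nop58 by 0.55 (adjusted p = 0.035). Nop58 lost its call without any one array other than mutant 2. Without mutant 1, mutant 3, control 1 or control 2 only 1 of the 17 rose. With array weights 5 of them rose, beside 2411 of all 20239 genes higher in that setting.

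**Figure D3:**
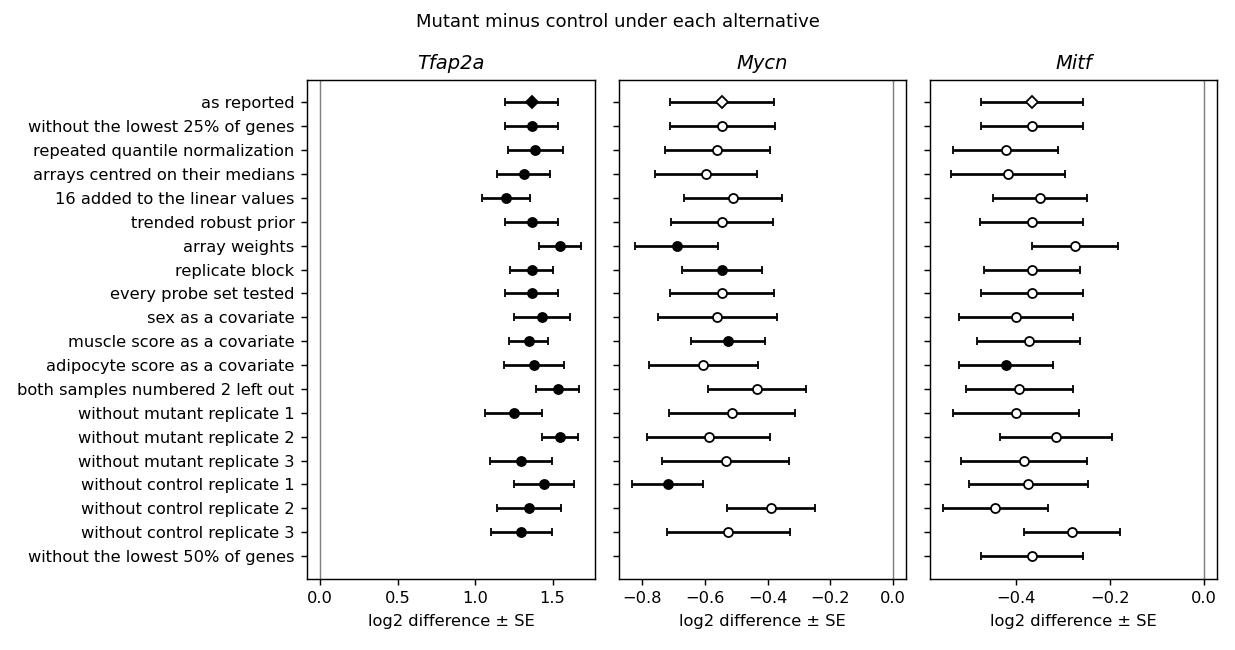
Log2 difference, mutant minus control, ± SE of Tfap2a, Mycn and Mitf as reported (diamond) and under each alternative (circles), filled where the adjusted p was under 0.05; each panel has its own axis. Tfap2a passed in all 18 alternatives that tested it, Mycn in 4 of 18 and Mitf in 1 of 19.

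The homeobox factors Msx1 and Msx2, which BMP signals induce in crest and limb, did not pass the test. Msx1 was at 7.46, 7.63 and 7.35 in the mutants and at 7.51, 7.82 and 7.42 in the controls. Both groups had the same order, number 2 highest and number 3 lowest. The difference was −0.10 (SE 0.13, interval −0.42 to 0.21, limma adjusted p = 0.707), and it was 0.01 without control 2. Msx2 was at 6.82, 6.91 and 6.71 in the mutants and at 6.84, 6.67 and 6.71 in the controls. Its difference was 0.08 (SE 0.09, interval −0.14 to 0.30, limma adjusted p = 0.685), and −0.01 without both arrays numbered 2. Both intervals, which are not adjusted over genes, stay inside a change of 1.5-fold, a log2 size of 0.58. The Msx2 values lay close to the lower quartile of all array values, 6.68, where differences may be compressed. Its interval therefore bounds the array signal and not the change in RNA. The within-array difference of Msx1 and Msx2 was lower by 0.18 on average in the mutants (mutant minus control −0.18, exact two-sided permutation p = 0.3, smallest possible 0.1).

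Their distal-less relatives Dlx1 and Dlx2, which lie side by side in the genome, rose. They were 2 of the 7 listed relatives, 28.6%, beside 9.62% of all genes called. Dlx1 was at 10.10, 9.70 and 10.17 in the mutants and at 7.44, 7.28 and 7.39 in the controls. That is the largest difference in the MSX and DLX family, 2.62 (SE 0.14, 6.13-fold, limma adjusted p = 0.000213). Dlx2 was at 9.27, 8.64 and 9.30 against 7.37, 7.74 and 7.67, a rise of 1.47 (SE 0.20, adjusted p = 0.00555). In both genes the mutants lay above the controls, and both calls held in all 19 alternatives. The other 5 genes, Msx3 and Dlx3 to Dlx6, lay between −0.10 and 0.01.

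BMP signalling genes around Msx1 and Msx2 were described by a list of ligands, receptors and SMADs and by a list of responsive genes and antagonists. Of 14 ligands, receptors and SMADs 4 rose and none fell, 28.6%, beside 9.62% of all genes called, with a median of 0.19. The type I receptor Acvr1 rose by 1.45 (SE 0.13, limma adjusted p = 0.00123), the ligand Bmp6 by 0.46 and the receptor Bmpr1b by 0.43. Bmpr1b lost its call without any one array other than mutant 2, and Bmp6 without mutant 3. Only 1 of the 14 rose without mutant 3, and 2 did without mutant 1, control 1 or control 2 and with the replicate block. Of 15 responsive genes and antagonists 4 rose and 1 fell, 33.3%, beside 9.62% of all genes called, with a median of 0.25. The median was 0.16 without mutant 2 and 0.11 without both arrays numbered 2. Bmper, a secreted BMP regulator, rose by 1.39, the helix-loop-helix inhibitor Id2 by 1.35 and Id4 by 0.64. Id4 lost its call without mutant 1, mutant 3 or control 2, and the count was 2 higher and 1 lower without any one of these arrays. With array weights it was 6 higher and 2 lower, beside 2411 higher and 1244 lower of all 20239 genes in that setting.

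Other regulators of the crest network were mostly not past the test. Of 24 named genes 3 rose and 1 fell, 16.7%, beside 9.62% of all genes called, with a median of 0.00. Rxrg, a retinoid receptor, was at 7.19, 8.54 and 7.28 in the mutants and at 9.36, 9.97 and 9.76 in the controls. It fell by 2.03 on the log2 scale (SE 0.36, limma adjusted p = 0.0163), with no overlap and with mutant 2 the highest mutant, and the call was lost without mutant 1 (0.064), mutant 3 (0.0727) or control 2 (0.0565). Sox8, a relative of Sox10, rose by 1.23 (SE 0.17, adjusted p = 0.00653), and the LIM-only factor Lmo4 by 0.61, a call lost without mutant 1 (0.0544). Twist1 rose by 0.59 (limma adjusted p = 0.0217). Sox10 was lower in all mutants, at −0.74, without passing (limma adjusted p = 0.0639). Without mutant 1, 1 of the 24 rose and none fell, and without mutant 3, 2 rose and none fell. Early glial lineage markers went both ways, 4 of 17 higher and 5 lower, 52.9%, beside 9.62% of all genes called, from Mal at −2.15 and L1cam at −1.96 to the endothelin receptor Ednrb at 2.44. The others that rose were Sox2 by 1.62, Cdh6 by 1.51 and Ncam1 by 1.44. The others that fell were Erbb3 (−1.14), Itga4 (−0.75) and Pmp22 (−0.60), the last of which is also on the list of Schwann cell markers. Without mutant 3, 2 rose and 2 fell.

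**Figure D4:**
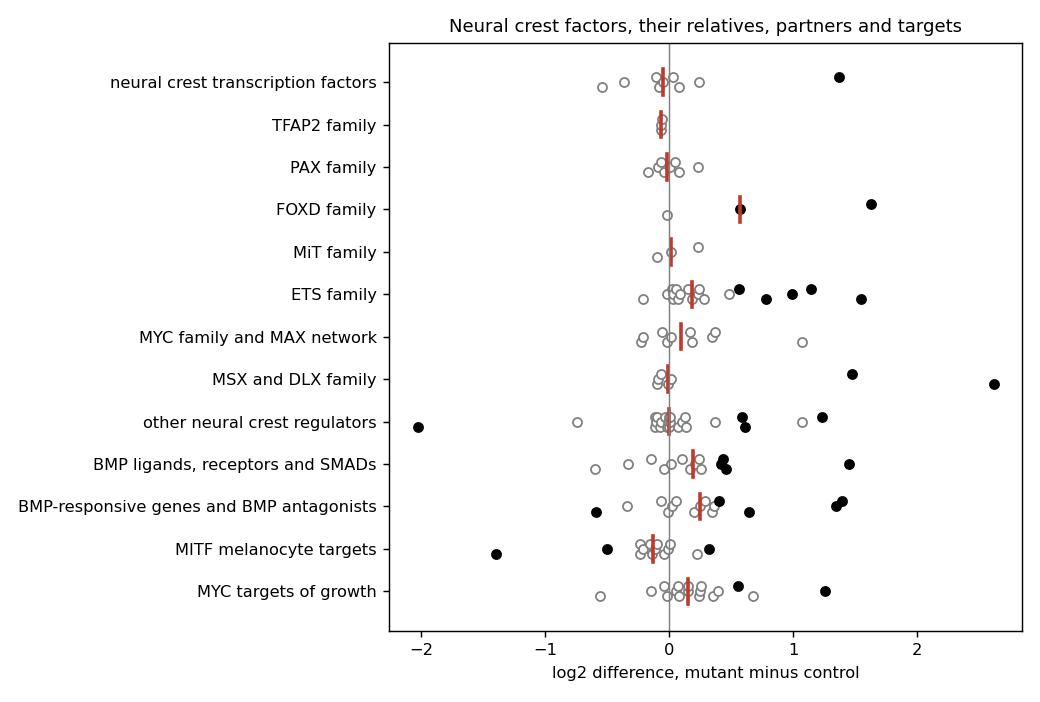
Log2 difference, mutant minus control, of each named gene in the list of 9 factors and in the lists of relatives, partners and targets; filled points passed at an adjusted p under 0.05 and the red bar is the list's median. Tfap2a at 1.36 is the only filled point among the 9, while Dlx1 at 2.62, Foxd1 at 1.62 and Etv1 at 1.55 stand to the right among the relatives.

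The 3 members with the smallest p were set against all other genes with an SD of at least 0.25 over the 6 arrays, as a description of pattern. Tfap2a followed Csrp2 (Pearson r 0.999 over 6 arrays), Vstm2b (0.998) and Ankrd6 (0.998) most closely. Csrp2, a LIM domain protein, rose by 0.63, Vstm2b by 1.62 and Ankrd6 by 1.17. With 6 arrays in 2 groups such values are common: 710 of 5369 genes had an r over 0.95 with Tfap2a. Mitf was most like Tacc1 (0.993), Dbn1 (0.992) and Ahcyl2 (0.989), with 316 genes over 0.95. Mycn was most like Lyrm1 (0.996), Eola1 (0.992) and Acvr2b (0.987), with 23 genes over 0.95, and none of these 6 genes passed the test. Among the 9 members, the highest correlation was that of Tfap2b and Msx2 (0.887), and that of Tfap2a and Tfap2b was 0.666.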

How the data were processed

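Sciatic nerve RNA of 3 mutant and 3 control mice was extracted with Trizol, amplified with an Ambion kit and hybridised to 1-colour arrays, per the labels' protocols. The authors deposited log2 values, 1 per probe set and mouse. The base was read from the values (3.55 to 14.52, array medians 8.00 to 8.08), and background correction, normalization and summarisation remain unstated in these sources. Limma is listed in the submitters' processing notes, with no role. Arrays have no read depth, their number limits the precision, and low values may be background.

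Of 21225 probe sets, 20239 carried 1 gene symbol, 0 several and 986 none here (platform annotation, updated through Entrez numbers with RefSeq, GRCm38.p6). Limma 3.58.1 (R 4.3.3) compared mutant with control for each named gene (lmFit, eBayes, two-sided, no block), with Benjamini-Hochberg adjustment over the whole table of named genes. The fit was tested on simulated data. Promoter letters were searched in Python 3.11.15, and figures drawn with matplotlib 3.10.9. The members, lists and alternatives were chosen with earlier results of these data known. Named genes were the 9 members, Zeb2 and, per list, up to 3 genes with the largest change that passed, or the one with the smallest p. Tfap2c, Tfap2e, Tfe3, Tfeb, Foxd4, Msx3 and Dlx3 to Dlx6 complete a family. Some further genes are named to show both directions of a list or its low values.

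Same-numbered mutant and control arrays deviated together from their group means over all genes (correlations 0.36, 0.574 and 0.295). The number was therefore used as a block in an alternative, although mutant 1 and control 3 also correlated, at 0.303. Sex, muscle and adipocyte scores (a list's mean log2 value) were covariates in further alternatives. No column outside the study was found (0).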

Additional observations from a re-analysis of the deposited data

How the results depend on the processing

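Across 19 alternatives, the rise of Tfap2a kept its direction and passed in each of the 18 that tested it, from 1.20 with 16 added to the linear values to 1.55. Leaving out the lowest 50% of genes removed Tfap2a and 5 other members before testing, and 0 members were called there (limma; Mitf, with the smallest adjusted p, at 0.0643). The count of members called was 2 with repeated quantile normalization, array weights, the replicate block, the muscle score or the adipocyte score, and ran from 1 to 2 when single arrays were left out. The additions were Tfap2b (0.33, quantile), Mitf (−0.42, adipocyte score) and Mycn (−0.69 with array weights, −0.55 with the replicate block, −0.53 with the muscle score). Single omitted arrays moved Mycn between −0.72 and −0.39. Of all genes, 3655 passed with array weights and 896 to 2021 when single arrays were left out. The block changed no other member's call, and the cause of these changes was not tested. Pairing by replicate number rests on the data and not on a statement in the labels. For the lists, 64 of 452 counts and 32 of 452 medians moved. Members with low values, such as Pax3, Tfap2b and Msx2, may be near array background, which limits any difference they can show.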
